A study of Homo sapiens with 6 samples.

Results

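The potassium channel subunit genes were taken as every row of the deposited count and TPM tables that is labelled protein_coding and whose gene name begins with KCN. This rule found 97 of 57914 genes. RNA had been sequenced from A375 cells, an established human melanoma line, after staining with Aldefluor, a fluorescent stain for aldehyde dehydrogenase (ALDH) activity. The ALDH_High group holds 3 libraries from the 5% of cells with the highest signal, and the ALDH_Low group 3 from the 5% with the lowest. All libraries share the cell line, the high-glucose medium, the staining and the sort, and no unsorted or unstained library was analysed here. The labels do not say whether libraries 1 to 3 of a group came from separate cultures, so p-values measure the spread between these samples, which may be technical.

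Potassium channels let potassium leave or enter the cell along its gradient and thereby set the membrane voltage. Voltage-gated channels are tetramers of pore-forming alpha subunits, calcium-activated channels open when calcium rises in the cytoplasm, inward rectifiers (KCNJ) hold the cell near its resting voltage, and tandem-pore channels (KCNK) carry background current. Auxiliary subunits change the gating or the surface delivery of these pores. In melanoma and other tumour cells, potassium channels have been studied for their links to cell volume, migration and cell cycle progress.

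Library totals lay between 26692868 and 37830603 counts. Genes were tested with edgeR's quasi-likelihood test over all 17047 genes that passed its low-count filter, and a gene was called when its Benjamini-Hochberg adjusted p was below 0.05. ALDH1A3, the gene in the study's title, was higher in ALDH_High (log2 fold change 1.32 with a standard error, SE, of 0.19, edgeR adjusted p 0.000734). It had 279, 519 and 504 TPM (transcript abundance scaled to library size and gene length) in ALDH_High libraries 1, 2 and 3. ALDH_Low libraries 1, 2 and 3 had 150, 182 and 165 TPM. Of the melanocyte lineage markers, SOX10 had 366 to 447 TPM in ALDH_High and 102 to 116 TPM in ALDH_Low, and S100B 54.3 to 60.2 TPM and 1.04 to 5.17 TPM. MITF had 5.67 to 6.95 TPM and 8.41 to 14.9 TPM, PMEL at most 0.526 TPM, and MLANA, TYR and DCT had at most 0.166 TPM in any library. The 5 white blood cell markers summed to 14.2 to 27 TPM in ALDH_High and 49.1 to 62.3 TPM in ALDH_Low, mostly CD68 (10.9 to 19.2 and 47.2 to 61.2 TPM) and, in ALDH_High, LYZ, and PTPRC and CD3E had at most 0.138 TPM. Markers of neurons, a cell type rich in potassium channels, summed to 2.66 to 3.52 TPM and 1.57 to 3.82 TPM, and endothelial markers to at most 0.509 TPM. Summed levels were 17.0 to 23.0 TPM against 11.9 to 16.4 TPM for keratinocyte markers, and 7.89 to 10.6 TPM against 4.92 to 5.06 TPM for fibroblast markers. The keratinocyte sum was nearly all KRT14, which was not called (edgeR adjusted p 0.108), while KRT5 was lower in ALDH_High (log2 fold change -3.63, edgeR adjusted p 0.000898). The part of these differences in the results below was not tested, and in bulk RNA fewer cells of a type and less RNA per cell cannot be told apart.

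Many potassium channel genes had few or no counts in these cells. Of the 97 genes, 70 were above the floor, set at more than 3 counts in at least 1 library, and 40 of them exceeded it in every library. The other 27 comprised 15 without a single count in any library and 12 with at most 3 counts, where a count of 0 still allows up to 3. Without any count were KCNA3, KCNA5, KCNA6, KCNA10, KCNB2, KCNG2, KCNS1, KCNS2, KCNJ9, KCNJ13, KCNK12, KCNK16, KCNK17, KCNK18 and KCNMB2. At 1 to 3 counts at most were KCNA1, KCNC2, KCNG4, KCNV2, KCNH6, KCNH7, KCNU1, KCNJ1, KCNK4, KCNE1B, KCNE2 and KCNIP1. A further 27 were above the floor but fell under the filter for testing; their highest count in a library was 35. That left 43 genes in the test.

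The summed TPM of all members was 222 ± 16.4 in ALDH_High and 226 ± 12.9 in ALDH_Low (SD, n = 3). KCNN4, KCNG1 and KCNMA1 together made up 65.5% to 73.8% of that sum in every library. The shares of KCNG1 and KCNMA1 did not overlap between the groups. KCNG1 was at 25.7 ± 4.54% of the sum in ALDH_High and 16.1 ± 3.47% in ALDH_Low, and KCNMA1 at 11.6 ± 1.43% and 22.5 ± 3.21% (SD, n = 3). For KCNG1 the nearest libraries were close, at 20.4% in ALDH_High and 19.2% in ALDH_Low. The share of KCNN4 overlapped, at 26.4% to 36.9% in ALDH_High and 32.8% to 33.7% in ALDH_Low.

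Of the 43 genes tested, 10 were higher and 7 were lower in ALDH_High at an edgeR adjusted p below 0.05. Without ALDH_Low library 3, 6 were higher and 6 lower. The background over all genes tested was 20.6% called, 10.8% higher and 9.83% lower. The median log2 fold change of the 43 was 0.059, against -0.013 over all genes tested, and the median absolute log2 fold change was 0.72 against 0.28. The groups did not overlap in 24 of the 43, where the background was 37.8% of all genes tested. These members were low genes, at a median of 1.55 CPM (counts scaled to library size) against 15.0 for all genes tested, and a low gene that passed the filter through 1 group only had to differ, so nothing is read from these shares. The voltage-gated alpha and modifier genes held 6 of the 10 higher genes and none of the lower ones, and the inward rectifiers held 3 of the 7 lower genes.

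**Figure D1:**
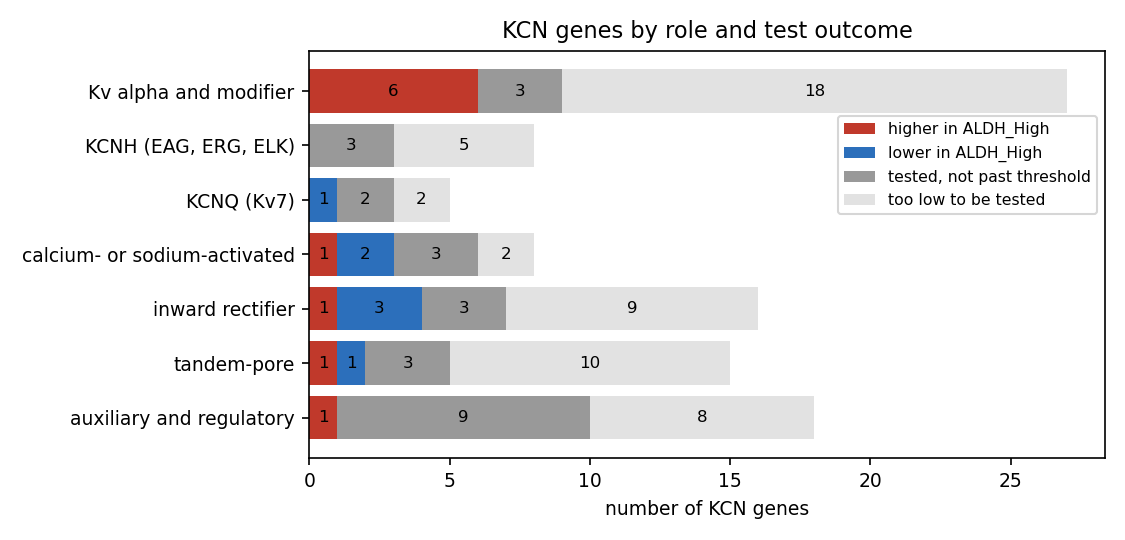
Each bar counts the KCN genes of a role group: red for higher in ALDH_High, blue for lower, dark grey for tested and not past an adjusted p of 0.05, light grey for too low to be tested. The top bar holds 6 higher genes and no lower one among 27.

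The RefSeq promoters are shown for genes picked by their small p in each direction in these same data. KCNS3 and KCNN1 rose, and KCNMA1 and KCNJ8 fell (KCNQ3, with the smallest p of the lower genes, is not shown). Each sequence is the 250 bases before the first start site that the RefSeq table (GRCh38.p14) lists, 5′ to 3′ on the gene's strand. KCNS3 is read from chr2:17877597-17877846 (plus strand), KCNN1 from chr19:17966857-17967106 (plus), KCNMA1 from chr10:77637809-77638058 (minus) and KCNJ8 from chr12:21774707-21774956 (minus). The windows of KCNN1, KCNMA1 and KCNJ8 lie inside the GENCODE spans of these genes, whose outermost starts are further upstream. Which start these cells use was not tested, so a window may not be the promoter in use. Capitals mark matches to 4 motifs searched on both strands: a SOX core (ACAAAG), an E-box (CACGTG), a TFAP2 palindrome (GCCNNNGGC) and an AP-1 site (TGANTCA).
KCNS3: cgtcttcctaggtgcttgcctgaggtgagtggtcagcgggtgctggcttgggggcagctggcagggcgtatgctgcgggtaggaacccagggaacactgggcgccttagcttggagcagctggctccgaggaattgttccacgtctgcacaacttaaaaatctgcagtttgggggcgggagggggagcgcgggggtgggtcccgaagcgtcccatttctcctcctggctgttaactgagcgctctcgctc
KCNN1: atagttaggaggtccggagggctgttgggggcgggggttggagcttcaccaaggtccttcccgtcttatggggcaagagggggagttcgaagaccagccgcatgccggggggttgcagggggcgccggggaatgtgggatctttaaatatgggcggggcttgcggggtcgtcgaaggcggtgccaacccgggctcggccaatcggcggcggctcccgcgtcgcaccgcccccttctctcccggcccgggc
KCNMA1: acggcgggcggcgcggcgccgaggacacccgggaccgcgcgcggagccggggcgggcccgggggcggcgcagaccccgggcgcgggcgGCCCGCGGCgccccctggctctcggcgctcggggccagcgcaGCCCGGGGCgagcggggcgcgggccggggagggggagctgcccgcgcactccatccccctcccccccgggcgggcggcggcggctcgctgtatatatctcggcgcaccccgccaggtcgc
KCNJ8: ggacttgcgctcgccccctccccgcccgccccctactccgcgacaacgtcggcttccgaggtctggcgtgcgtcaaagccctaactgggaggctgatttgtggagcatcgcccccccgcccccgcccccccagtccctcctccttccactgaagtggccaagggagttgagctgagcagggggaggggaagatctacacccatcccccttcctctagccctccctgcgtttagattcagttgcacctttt
Only the KCNMA1 window held a match, with 2 TFAP2 palindromes. Over all 35116 promoters of the table with this length, the TFAP2 palindrome was found in 19.8%, the SOX core in 13.7%, the AP-1 site in 6.57% and the E-box in 6.34%. The table held promoters for 72 of the 97 members, among them 7 of the 10 higher and 6 of the 7 lower genes. In these promoters the TFAP2 palindrome was found for KCNJ2 (higher) and KCNMA1 (lower), the AP-1 site for KCNJ4 (lower), and the SOX core and the E-box for none. The windows were rich in G and C, at 85.6% for KCNMA1, 68.8% for KCNN1, 64.8% for KCNJ8 and 62.4% for KCNS3, where the median of all promoters was 58%. Members as a whole had a median of 64.8%, the 7 higher genes 77.2% and the 6 lower genes 63.4%. KCNMA1 had 46 CpG dinucleotides in its 250 bases and KCNS3 had 14.

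Among the 27 voltage-gated alpha and modifier genes (KCNA, KCNB, KCNC, KCND, KCNF, KCNG, KCNS and KCNV), 9 were tested and 6 rose (all genes tested: 10.8% higher and 9.83% lower). None fell by edgeR, with 1 lower at an unadjusted p below 0.05, and the DESeq2 Wald test called 5 higher and 1 lower. Limma on log2(TPM + 1) had values for only 5 of the 9 and called 2 higher and none lower. The summed level of the group was 72.8, 84.8 and 78.4 TPM in ALDH_High libraries 1, 2 and 3 and 41.7, 56.0 and 46.5 TPM in ALDH_Low libraries 1, 2 and 3, most of it KCNG1. KCNS3, a modifier subunit that forms no channel on its own and joins Kv2 pores, stood out (ENSG00000170745, chromosome 2, 17877847 to 18361616, GRCh38). It had 8.6, 6.71 and 9.02 TPM in ALDH_High libraries 1, 2 and 3 and 0.867, 0.637 and 0.740 TPM in ALDH_Low libraries 1, 2 and 3. Every ALDH_High library was thus far above every ALDH_Low library, and the log2 fold change of 3.39 (SE 0.23, edgeR adjusted p 1.19e-05) had the smallest p of the family. An exact two-sided permutation test of the 3 against 3 libraries gave p = 0.1, the smallest it can give, for KCNS3 as for each gene whose groups did not overlap.

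KCNG1, a modifier of the same kind, was the second most abundant member and lay on chromosome 20 (ENSG00000026559, 51003656 to 51023107). Its levels were 48.2, 64.2 and 57.5 TPM in ALDH_High and 29.0, 44.6 and 35.8 TPM in ALDH_Low. The groups did not overlap, but the lowest ALDH_High and the highest ALDH_Low library were close, and KCNG1 rose by a log2 fold change of 0.58 (SE 0.16, edgeR adjusted p 0.0276). Protein-coding genes of chromosome 20 as a whole had a median log2 fold change of 0.28 over 356 tested genes, with 81.7% of them above 0; the part of this in the KCNG1 value was not tested.

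The modifiers KCNF1 and KCNG3 rose from much lower levels. KCNF1 (chromosome 2, 10911934 to 10914225) had 1.68, 0.978 and 0.922 TPM in ALDH_High and 0.559, 0.165 and 0.166 TPM in ALDH_Low (log2 fold change 1.91 with SE 0.51, edgeR adjusted p 0.0248). KCNG3 (chromosome 2, 42442017 to 42493982) had 9, 14 and 19 counts in ALDH_High and 6, 2 and 1 counts in ALDH_Low (log2 fold change 2.23 with SE 0.56, edgeR adjusted p 0.0184). For both, ALDH_Low library 1 was the ALDH_Low library nearest to the ALDH_High group, and without it the log2 fold changes were 2.76 for KCNF1 and 3.01 for KCNG3. KCNG3 passed the low-count filter through its ALDH_High libraries only, so it had to differ and nothing is read from its call. KCNB2, a Kv2 pore that such modifiers join, had no count in any library. It is not the only Kv2 pore, so whether these modifiers had a partner is not read from it.

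KCND3, an A-type (Kv4) alpha subunit, rose as well. KCND3 (chromosome 1, 111770662 to 111989668) had 0.206, 0.869 and 0.743 TPM in ALDH_High and 0.115, 0.279 and 0.172 TPM in ALDH_Low (1.61, SE 0.50, edgeR adjusted p 0.0444). ALDH_High library 1 of KCND3 lay within the ALDH_Low range, so its groups overlapped. KCNC4, a Kv3 alpha subunit and the fifth most abundant member, had 7.70, 7.0 and 5.00 TPM against 6.92, 8.0 and 5.71 TPM, with overlapping groups (log2 fold change -0.10 with SE 0.21, edgeR adjusted p 0.796). KCND1, an A-type subunit like KCND3, had 1.65 ± 0.337 and 1.56 ± 0.791 TPM (SD, n = 3; log2 fold change 0.036 with SE 0.37, edgeR adjusted p 0.963).

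Single libraries decided several of these calls. KCNG1 missed the threshold without ALDH_High library 2 or 3 or ALDH_Low library 1 or 3 (edgeR adjusted p 0.0505 to 0.0969), KCNG3 without ALDH_High library 2 or 3 or ALDH_Low library 2 or 3 (0.0525 to 0.0899), KCNF1 without ALDH_High library 1 or ALDH_Low library 2 or 3 (0.0625 to 0.104), and KCND3 in all 5 such fits other than the one without ALDH_High library 1 (0.0502 to 0.159).

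**Figure D2:**
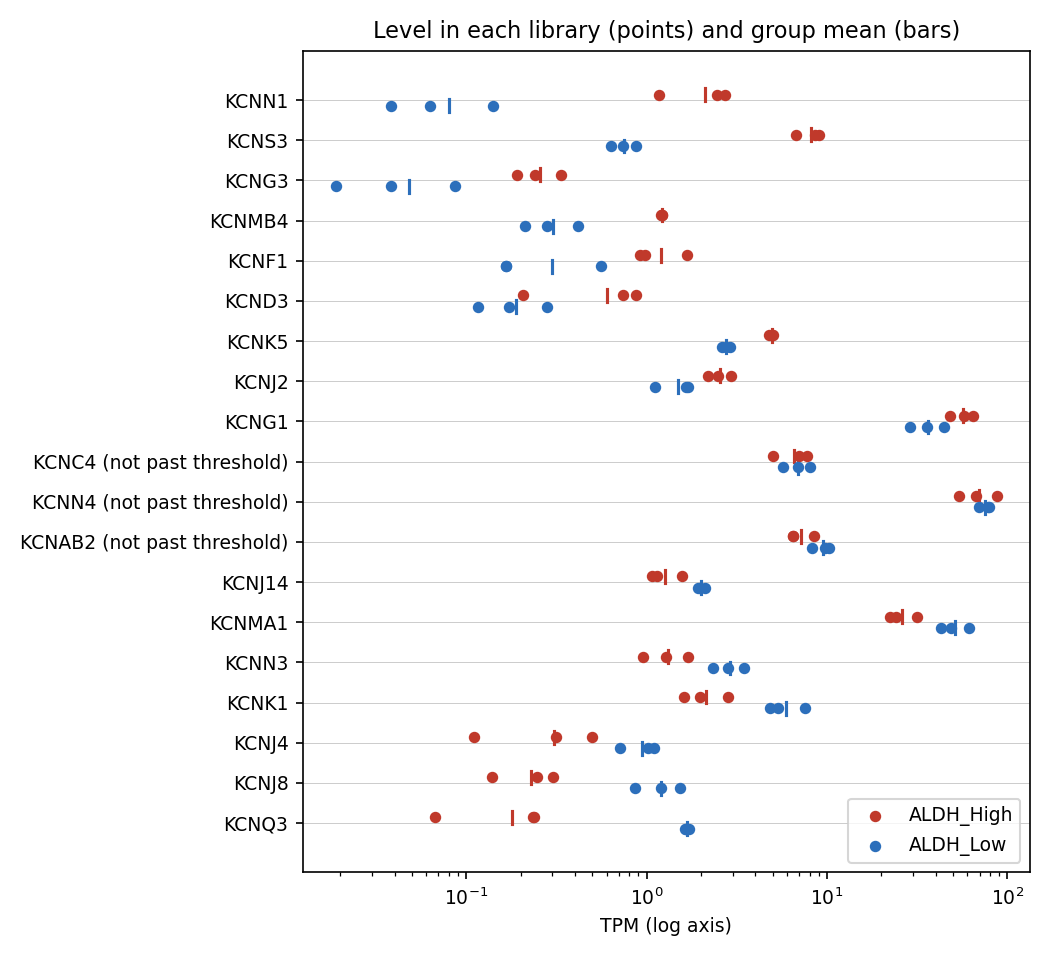
Points are the TPM of single libraries on a log axis, red for ALDH_High and blue for ALDH_Low, with a bar at each group mean, for 16 of the genes past the threshold and the 5 most abundant members, ordered by log2 fold change. KCNS3 lies at 6.71 to 9.02 TPM against 0.637 to 0.867 TPM, and KCNQ3 at 0.0672 to 0.237 TPM against 1.63 to 1.71 TPM.

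KCNQ and KCNH genes encode voltage-gated channels of slower or distinctive gating. KCNQ3, a subunit of the M-current that damps excitability in neurons, fell the most of all members tested (ENSG00000184156, chromosome 8). It had 0.0672, 0.233 and 0.237 TPM in ALDH_High and 1.63, 1.66 and 1.71 TPM in ALDH_Low (log2 fold change -3.26 with SE 0.37, edgeR adjusted p 0.000191). The ALDH_Low values were nearly equal and all far above ALDH_High. Its relative KCNQ5, also an M-current subunit, was more abundant and overlapped, with 2.70, 4.49 and 4.46 TPM against 3.02, 3.69 and 3.0 TPM (0.20, SE 0.19, edgeR adjusted p 0.521).

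None of the 3 KCNH genes tested passed by edgeR or the DESeq2 Wald test, and KCNH5 alone had an unadjusted p below 0.05. Limma on log2(TPM + 1) had a value for only 1 of the 3, which did not pass. KCNH1 (EAG1), which many tumour lines express, had 0.973, 2.03 and 1.35 TPM in ALDH_High and 0.795, 1.17 and 0.791 TPM in ALDH_Low (log2 fold change 0.61 with SE 0.28, edgeR adjusted p 0.165). KCNH5, its close relative, had 0.839, 0.891 and 0.932 TPM against 0.341, 0.567 and 0.573 TPM without overlap, and still missed the threshold (0.81, SE 0.31, edgeR adjusted p 0.101). KCNH3 had 0.614 to 0.888 TPM against 0.453 to 0.930 TPM (0.15, edgeR adjusted p 0.819). KCNH2 (ERG1) had at most 15 counts in a library and was not tested.

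Calcium-activated channels held the most abundant members and moved in both directions. KCNN4, the intermediate-conductance channel KCa3.1, led the family in level (ENSG00000104783, chromosome 19, 43766533 to 43780976). It had 87.2, 66.7 and 53.9 TPM in ALDH_High and 79.1, 78.3 and 69.3 TPM in ALDH_Low, with overlapping groups (log2 fold change -0.16 with SE 0.19, edgeR adjusted p 0.626). ALDH_High library 1 held the highest level of all 6, and without it KCNN4 passed the threshold (-0.41, edgeR adjusted p 0.0384), whereas without ALDH_High library 3 the value was 0.040.

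KCNMA1, the pore of the large-conductance BK channel, was 2.02-fold lower in ALDH_High (ENSG00000156113, chromosome 10, 76869601 to 77638369). Its levels were 31.3, 24.2 and 22.3 TPM in ALDH_High and 61.4, 48.9 and 42.9 TPM in ALDH_Low, with a clear gap between the groups (log2 fold change -1.01 with SE 0.19, edgeR adjusted p 0.00388).

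The small-conductance (SK) channel genes, whose channels are gated through bound calmodulin, went opposite ways. KCNN1 (SK1; ENSG00000105642, chromosome 19, 17951293 to 18000085) had the largest rise of the members tested, with 87, 118 and 49 counts in ALDH_High and 7, 2 and 1 counts in ALDH_Low. In TPM these were 2.45, 2.70 and 1.17 against 0.140, 0.0626 and 0.0381, and the log2 fold change was 4.71 (SE 0.57, edgeR adjusted p 0.000297). KCNN1 had 2 counts or fewer in ALDH_Low libraries 2 and 3, and the size of its fold rests on those few counts: without ALDH_Low library 1 the log2 fold change was 5.63 (edgeR adjusted p 0.000874). Only through its ALDH_High libraries did KCNN1 pass the low-count filter, so it had to differ and nothing is read from its call. KCNN3 (SK3; chromosome 1, 154697455 to 154870281) fell, with 1.28, 1.70 and 0.959 TPM against 3.47, 2.34 and 2.84 TPM (-1.19, SE 0.25, edgeR adjusted p 0.00819). It missed the threshold in limma on log2(TPM + 0.1) (-1.10, limma adjusted p 0.0506) and on log2(TPM + 1) without a TPM filter (-0.75, limma adjusted p 0.125). KCNN2 (SK2) varied from 1 to 30 counts without a difference between groups (-0.032, SE 0.72, edgeR adjusted p 0.983).

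Of the 18 auxiliary and regulatory genes, 10 were tested and 1 rose, near the 10.8% higher over all genes tested (9.83% were lower). None fell by edgeR or the DESeq2 Wald test, and KCNE5 and KCNAB2 were lower at an unadjusted p below 0.05 only. Limma on log2(TPM + 1) had values for only 3 of the 10 and called none of them. The riser was KCNMB4, a beta subunit that slows BK channel activation and is best known from neurons (ENSG00000135643, chromosome 12, 70366290 to 70434292). It had 1.22, 1.22 and 1.21 TPM in ALDH_High and 0.211, 0.418 and 0.281 TPM in ALDH_Low, so that the ALDH_High libraries were nearly equal and all above ALDH_Low (log2 fold change 1.96 with SE 0.32, edgeR adjusted p 0.00194). Set beside its pore partner KCNMA1, which fell, and as a description that follows from both calls, KCNMB4 amounted to 3.90, 5.06 and 5.42 TPM per 100 TPM of KCNMA1 in ALDH_High and to 0.344, 0.856 and 0.656 in ALDH_Low. KCNMB3, another BK beta subunit, had 0.773, 0.939 and 0.399 TPM against 0.314, 0.208 and 0.341 TPM and did not pass (1.23, SE 0.45, edgeR adjusted p 0.0828), except without ALDH_High library 3 (1.55, edgeR adjusted p 0.0409). KCNMB1 had at most 10 counts in a library and KCNMB2 none.

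**Figure D3:**
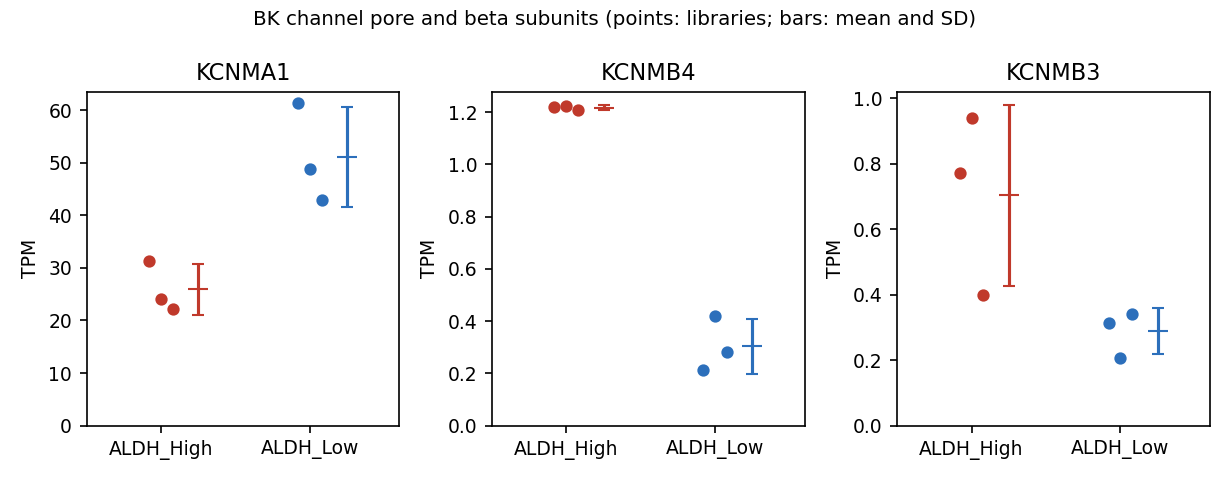
TPM of the BK pore gene KCNMA1 and the beta subunit genes KCNMB4 and KCNMB3 in each library (points), with the mean and SD of the 3 libraries beside them; each panel has its own axis from 0. KCNMA1 is lower in ALDH_High (22.3 to 31.3 against 42.9 to 61.4 TPM) and KCNMB4 higher (1.21 to 1.22 against 0.211 to 0.418 TPM).

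KCNAB2, a cytoplasmic beta subunit of voltage-gated channels with an aldo-keto reductase fold, was the fourth most abundant member. It had 6.50, 6.47 and 8.42 TPM in ALDH_High and 10.3, 9.74 and 8.26 TPM in ALDH_Low (log2 fold change -0.45 with SE 0.15, edgeR adjusted p 0.0534). Its TPM overlapped, as ALDH_High library 3 lay just above ALDH_Low library 3, whereas its CPM did not (12.3 to 15.7 against 17.4 to 20.5). With upper-quartile scaling it passed (-0.50, edgeR adjusted p 0.0352), and in the other 14 of 15 alternative fits it missed the threshold. KCNIP3, a calcium-binding protein that joins Kv4 pores and also acts as the transcriptional repressor DREAM, had 3.66, 3.63 and 3.54 TPM against 2.58, 2.26 and 1.63 TPM. Its groups did not overlap and it missed the threshold narrowly (0.70, SE 0.22, edgeR adjusted p 0.0521). The replicate number as a block (0.71, edgeR adjusted p 0.0356) and the DESeq2 Wald test (0.71, DESeq2 adjusted p 0.0286) both put KCNIP3 past it. In the other 13 of 15 alternative fits, among them each with 1 library left out, KCNIP3 missed it. KCNAB3, the remaining beta subunit tested, had 1.02 TPM in ALDH_High library 1 but 4.47 and 5.34 TPM in libraries 2 and 3, against 1.88 to 3.25 TPM in ALDH_Low. Its call turned on that library: 0.44 (edgeR adjusted p 0.566) with it and 0.88 (edgeR adjusted p 0.0474) without it. The other 5 auxiliary genes tested (KCNE1, KCNE4, KCNE5, KCNIP2 and KCNRG) had log2 fold changes from -1.43 (KCNE5, edgeR adjusted p 0.0612) to 0.68 (KCNE1).

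Of the 16 inward rectifier genes, 7 were tested, 1 rose and 3 fell (all genes tested: 10.8% higher and 9.83% lower). KCNJ8 (Kir6.1), a pore of ATP-sensitive channels, fell most (ENSG00000121361, chromosome 12, 21764955 to 21775600). It had 0.301, 0.139 and 0.246 TPM in ALDH_High and 0.858, 1.20 and 1.54 TPM in ALDH_Low, without overlap (log2 fold change -2.47 with SE 0.42, edgeR adjusted p 0.00239). ABCC9, a sulfonylurea receptor subunit that partners with this pore, had 0.575 to 0.881 TPM and 0.618 to 0.907 TPM and was not called (-0.21, SE 0.28, edgeR adjusted p 0.672). KCNJ11 (Kir6.2), the other ATP-sensitive pore, had at most 10 counts in a library.

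The strong rectifiers KCNJ2 (Kir2.1) and KCNJ4 (Kir2.3) diverged. KCNJ2 (chromosome 17, 70168673 to 70180044) was higher, with 2.94, 2.20 and 2.47 TPM against 1.65, 1.69 and 1.12 TPM (log2 fold change 0.73 with SE 0.22, edgeR adjusted p 0.0436). KCNJ4 (chromosome 22, 38426327 to 38455199) was lower, with 0.11, 0.499 and 0.315 TPM against 0.712, 1.10 and 1.01 TPM (-1.63, SE 0.47, edgeR adjusted p 0.0324). KCNJ14 (Kir2.4; chromosome 19, 48455574 to 48466980) was lower as well, with 1.14, 1.07 and 1.58 TPM against 1.96, 1.92 and 2.11 TPM (-0.72, SE 0.22, edgeR adjusted p 0.0405). In each of these genes the groups were separate by a small margin. Every fit that left out 1 library lost the KCNJ2 call (edgeR adjusted p 0.0509 to 0.148), every one but that without ALDH_High library 3 lost KCNJ14 (0.0589 to 0.160), and those without ALDH_High library 3 or ALDH_Low library 2 or 3 lost KCNJ4 (0.0922 to 0.109). KCNJ12 (Kir2.2; -0.54, SE 0.26, edgeR adjusted p 0.180) is nearly identical in sequence to KCNJ18, so reads may be split between them and its value is uncertain. KCNJ10 (Kir4.1) had 0.281 to 0.360 TPM against 0 to 0.232 TPM, without overlap, and did not pass (1.72, SE 0.75, edgeR adjusted p 0.143), except without ALDH_Low library 2 (3.26, edgeR adjusted p 0.0329). KCNJ15 (Kir4.2) overlapped widely (-0.38, SE 0.68, edgeR adjusted p 0.755).

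Of the 15 tandem-pore genes, 5 were tested, 1 rose and 1 fell (all genes tested: 10.8% higher and 9.83% lower). KCNK5 (TASK-2), an alkali-activated channel with a part in volume regulation, had tight levels of 5.02, 4.79 and 4.96 TPM in ALDH_High and 2.60, 2.76 and 2.91 TPM in ALDH_Low (chromosome 6, 39188971 to 39229475). It rose by a log2 fold change of 0.79 (SE 0.16, edgeR adjusted p 0.00578). KCNK1 (TWIK-1), a weakly conducting background channel, had 2.83, 1.99 and 1.61 TPM against 7.58, 5.36 and 4.85 TPM (chromosome 1, 233614106 to 233672514) and was lower (-1.50, SE 0.29, edgeR adjusted p 0.00499). Both had groups that lay well apart. The other 3 lay below 0 without passing: KCNK6 (-0.74, edgeR adjusted p 0.11), KCNK2 (TREK-1; -0.57, edgeR adjusted p 0.243) and KCNK3 (TASK-1; -0.21, edgeR adjusted p 0.811).

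**Figure D4:**
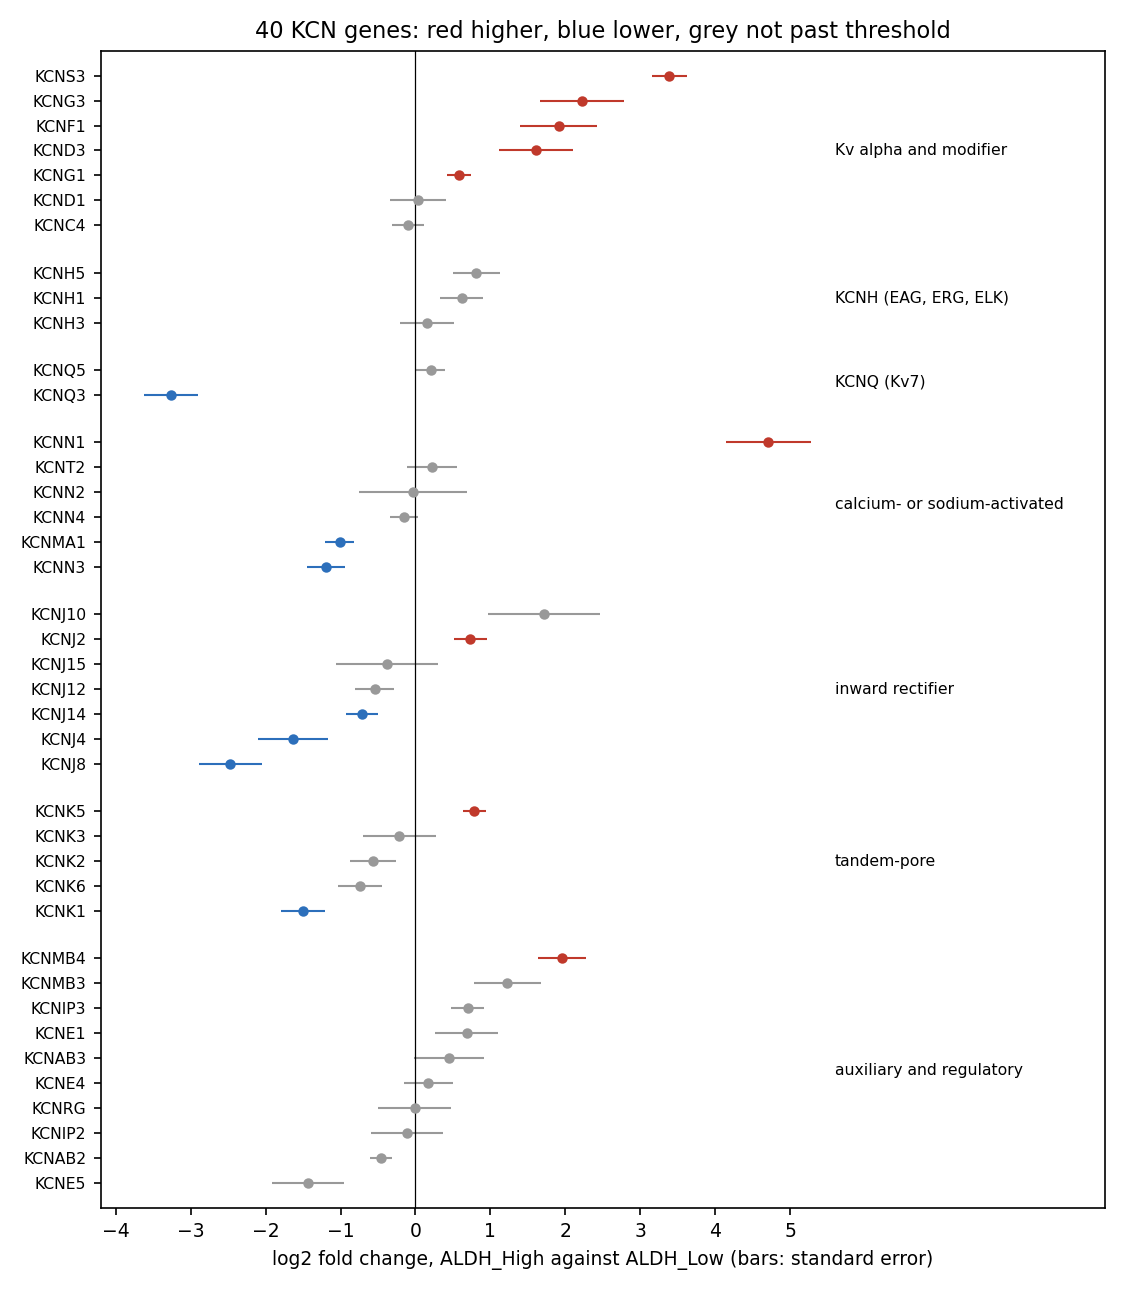
Log2 fold change of ALDH_High against ALDH_Low with its standard error for 40 of the KCN genes tested, by role; red is higher, blue is lower and grey did not pass an adjusted p of 0.05. Values run from -3.26 (KCNQ3) to 4.71 (KCNN1).

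Among the genes too low to be tested, KCNA4 (Kv1.4), an A-type alpha subunit, showed the widest gap. It had 23, 9 and 16 counts in ALDH_High and 1, 0 and 0 in ALDH_Low, which puts it at least 5.72-fold higher against a floor of 3 counts per library, and at least 3.83-fold without ALDH_High library 1. KCNK15 (6, 7 and 7 against 0, 0 and 1 counts) was at least 2.25-fold higher on the same floor. KCNQ1 had 11, 1 and 6 against 0, 1 and 0 counts, so that its groups overlapped, and its bound of 2.23-fold dropped to 1.07-fold without ALDH_High library 1. The span of KCNQ1 holds the antisense transcript KCNQ1OT1 with 180 to 487 counts per library, and since no source used here says if reads were counted by strand, the KCNQ1 counts are uncertain. KCNV1, a modifier, had 4, 3 and 8 counts in ALDH_High and 33, 28 and 7 in ALDH_Low, where library 3 lay within the ALDH_High range. Another 20 untested genes had at most 22 counts in a library: KCNA2, KCNA7, KCNC1, KCND2, KCNH2, KCNH4, KCNH8, KCNJ3, KCNJ5, KCNJ6, KCNJ11, KCNJ16, KCNJ18, KCNK7, KCNK9, KCNK13, KCNAB1, KCNE3, KCNIP4 and KCNMB1. Of these, KCNA2 had 7, 4 and 1 counts against 3, 1 and 0, with overlapping groups. KCNK7 had 3, 1 and 3 counts in ALDH_High and 9, 14 and 4 in ALDH_Low. Its ALDH_Low mean was 2.89-fold above the floor of 3 counts per library, or 1.93-fold without ALDH_Low library 2. Since ALDH_High libraries 1 and 3 were at that floor, these values are not lower bounds, and the nearest libraries had 3 and 4 counts.

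Several members were carried by 1 library, a pattern picked out after the values were seen. KCNT1, a sodium-activated channel, had 35 counts in ALDH_Low library 2 and at most 3 elsewhere, and KCNK10 (TREK-2) had 31 in ALDH_High library 3 and at most 1 elsewhere. When genes were tested without a low-count filter, 7 further members passed, among them KCNA4, KCNK10, KCNV1, KCNK15, KCNT1 and KCNQ1. The p-values of that fit cannot be read like those of the filtered fit. ALDH1A3 had an edgeR adjusted p of 2.67e-21 without the filter and 0.000734 with it, and VAPB 0.0793 and 0.0373. The values of KCNK10 (3.70, edgeR adjusted p 0.00169) and KCNT1 (-2.45, edgeR adjusted p 0.0101) rest on 1 library each.

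**Figure D5:**
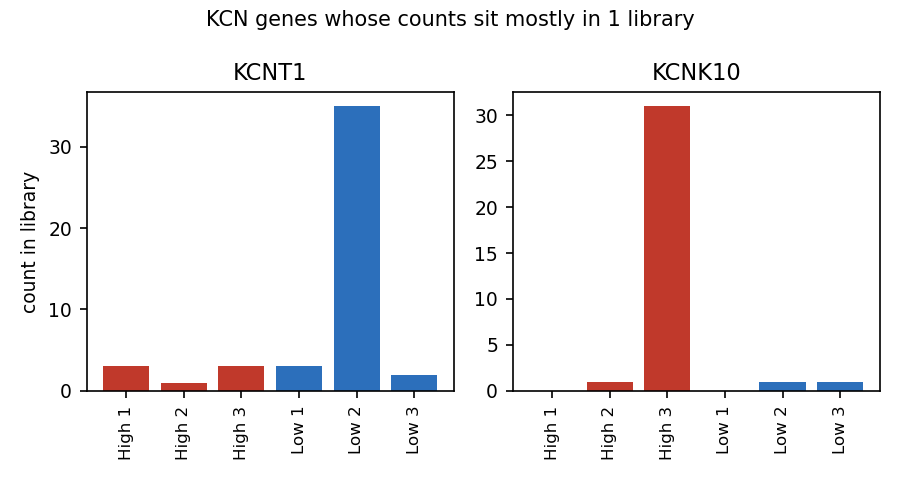
Counts of KCNT1 and KCNK10 in each of the 6 libraries, red for ALDH_High and blue for ALDH_Low, with an axis from 0 in each panel. In each panel 1 library stands above the rest, at 35 and 31 counts.

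The rest of the potassium handling machinery was followed in 4 lists of 56 genes, of which 33 were tested, 9 rose and 1 fell, against a background of 10.8% higher and 9.83% lower over all genes. Without ALDH_Low library 2 or 3, 6 of these genes passed. In the list of potassium uptake and cotransport, 6 of 13 tested genes rose (median log2 fold change 0.61, where all genes tested had -0.013). The medians of the other 3 lists were 0.097 for channel partners, 0.042 for calcium supply and -0.052 for cyclic nucleotide gated channels. FXYD6 (3.13, SE 0.34, edgeR adjusted p 0.000161), SLC12A7 (1.90, SE 0.23, edgeR adjusted p 0.000290) and FXYD3 (4.04, SE 0.46, edgeR adjusted p 0.000209) had the smallest p; the FXYD proteins modulate the sodium pump and SLC12A7 is the potassium chloride cotransporter KCC4. FXYD3 had 95.0, 45.3 and 35.9 TPM in ALDH_High and 5.36, 2.21 and 2.79 TPM in ALDH_Low, a gap with no overlap, and its log2 fold change was 3.44 without ALDH_High library 1. Among 8 calcium supply genes, ITPR2 (0.70, SE 0.15, edgeR adjusted p 0.00756) and STIM2 (0.46, SE 0.13, edgeR adjusted p 0.0278) rose, and ORAI1, the store-operated calcium channel, did not pass (0.081, edgeR adjusted p 0.811).

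Of 8 channel partners tested, VAPB, an ER protein that tethers Kv2 clusters, rose (0.34, SE 0.10, edgeR adjusted p 0.0373) and lies on chromosome 20 like KCNG1. Of 4 cyclic nucleotide gated channels tested, HCN3 fell (-0.75, SE 0.24, edgeR adjusted p 0.0483). Leaving out 1 library lost VAPB in all fits but that without ALDH_High library 1, HCN3 in all but that without ALDH_Low library 1, and STIM2 without ALDH_High library 3 or any ALDH_Low library, with edgeR adjusted p up to 0.160. CALM2 and CALM3, which encode the calmodulin that gates the KCNN channels, had log2 fold changes of 0.19 and 0.14 and did not pass (edgeR adjusted p 0.242 and 0.472).

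Some member spans overlap other expressed genes, which matters because the library kit was stranded but the counting is not stated to be. On the opposite strand, KCND3 overlaps DDX20 (1190 to 2182 counts), KCNAB2 overlaps NPHP4 (545 to 971 counts), KCNH3 overlaps MCRS1 (3635 to 4477 counts) and KCNMB3 overlaps a gene with 414 to 768 counts. On the same strand, KCNJ14 overlaps GRWD1 (4922 to 6973 counts), KCNE5 overlaps ACSL4 (757 to 1291 counts), KCNJ10 overlaps PIGM (460 to 712 counts), KCNRG overlaps TRIM13 (652 to 1260 counts) and KCNJ15 overlaps DSCR8 (36 to 137 counts). KCNE1 has a near copy, KCNE1B. Values of these channel genes are uncertain to that extent, and other members overlap genes too.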

How the data were processed

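RNA was measured in 6 stranded mRNA libraries of sorted A375 cells, 3 per group, without molecular identifiers. The authors deposited 1 table of counts per gene and 1 of TPM. By its values, the deposited count table holds estimated counts rounded to whole numbers (133 to 177 genes per library have a count of 0 and a TPM above 0), and the test planned for plain counts was used on them as they stand. The submitters' processing notes name FastQC 0.11.3, STAR 2.5.1b, HTSeq 0.6.1, DESeq2 and the build GRCh38, with no role given; the annotation release and the strand setting of the counting are not given in the sources used here. Rows without a gene name (261, with 0.0213% to 0.0267% of the counts) were left out.

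Members were every protein-coding gene whose name begins with KCN; all 97 IDs were found in GENCODE 44, which gave the GRCh38 coordinates. The members, role groups and lists were chosen with earlier results of these data known. edgeR 4.0.16 in R 4.3.3 (filterByExpr, TMM scaling, glmQLFit and glmQLFTest with group as the only term) was fitted to all 6 libraries, with Benjamini-Hochberg adjustment over 17047 genes and a threshold of 0.05, and the code was tested on simulated counts. Single values were compared by an exact permutation test. The floor of 3 counts covers counting error only. Genes named were the members past the threshold, the 5 members highest in mean TPM and partner genes with the smallest p per list; others were named after their values were seen, and some genes that entered the counts are not reported here. Alternatives were DESeq2 1.42.0 size factors and Wald test, upper-quartile scaling, no filter, at least 10 counts in every library, limma 3.58.1 on log2(TPM + 1) and log2(TPM + 0.1), a replicate block, each library left out, and stricter thresholds. Promoters of 250 bases came from the RefSeq table (GRCh38.p14), using the first start listed per gene.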

Additional observations from a re-analysis of the deposited data

How the results depend on the processing

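Of the 17 members called by edgeR, 9 passed in every alternative run for them (among them KCNS3, KCNQ3, KCNN1, KCNMB4, KCNJ8, KCNMA1, KCNK1 and KCNK5), 8 missed the threshold in at least 1, and none changed sign. Of the 15 alternative fits, KCNQ3 and KCNJ8 had values in 12, KCNMB4 in 13 and KCNN1 in 14, so these were tried less widely. Against 10 members higher and 7 lower, limma on log2(TPM + 1) called 4 and 3, on log2(TPM + 0.1) 4 and 2, and without a TPM filter 6 and 4. A minimum of 10 counts in every library left 4 lower. An adjusted p below 0.01 left 5 higher. Limma and that minimum tested fewer members (20 and 27 of 43); without a TPM filter 82 were tested and the cause was not tested. Leaving out 1 library gave 6 to 9 higher (6 without ALDH_Low library 3) and 6 to 7 lower. Against 3513 calls over all genes, limma without a TPM filter made 2006, an adjusted p below 0.01 1930, a required log2 change of 1 or more in size 1958, and leaving out 1 library 2488 to 4221. The 4221 came without ALDH_High library 1, and leaving out any other library gave 2488 to 2738. Upper-quartile scaling moved the split from 1838 higher and 1675 lower to 1644 and 1931, and that of the members to 8 and 8. The 10 partner calls became 6 at an adjusted p below 0.01, 4 with that size required and 6 to 9 with 1 library left out (6 without ALDH_Low library 2 or 3). ALDH1A3 ranged from 1.20 to 1.54 with 1 library left out and passed in all 15 fits.

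With the replicate number as a block, 11 members were higher and 7 lower, with KCNIP3 added. Deviations of same-numbered libraries correlated at 0.15, 0.076 and 0.11, and the numbers were therefore treated as names only, although each library correlated best with its own number, a hint from the data and not the design. Of the 26 members not called, 10 changed sign somewhere, the cause of which was not tested. Among them were KCND1 with upper-quartile scaling (-0.017), KCNN2 with the block (0.24) and in limma without a filter (0.033), and KCNRG without a low-count filter (0.00087), with the block (0.042), by DESeq2 (0.012) and in limma without a filter (0.011). With 1 library left out, log2 fold changes ran from -0.41 to 0.040 for KCNN4, -1.32 to 0.25 for KCNJ15, -0.28 to 0.11 for KCNC4, -1.02 to 0.13 for KCNK3, -0.051 to 0.55 for KCNH3, -0.31 to 0.22 for KCNIP2, -0.30 to 0.45 for KCND1, -0.56 to 0.87 for KCNN2 and -0.32 to 0.34 for KCNRG. Depth limits the 54 members not tested, for which a count of 0 allows up to 3.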
